A study of Mus musculus with 6 samples.

Results

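The genes described here encode Polycomb repressive complex PRC2 and the demethylases that remove its mark. They were chosen by symbol and comprise 10 of the 24015 genes counted: the catalytic subunits Ezh1 and Ezh2, the core subunits Eed and Suz12, the accessory subunits Jarid2 and Mtf2, the histone-binding subunits Rbbp4 and Rbbp7, and the H3K27 demethylases Kdm6a and Kdm6b. RNA-Seq was performed on sciatic nerve from control and Rnf40ΔSC mice at postnatal day 14, with 3 libraries per genotype that are labelled as biological replicates and were each made from pooled nerves. Control mice carried floxed Rnf40 alleles (Rnf40 fl/fl) without Cre, and Rnf40ΔSC mice (cko in the labels) carried the same alleles together with a Dhh::Cre transgene, which is active in the Schwann cell lineage. Both genotypes are labelled as a mixed 129SvJ/C57Bl/6J background, whereas the methods name C3H in place of 129SvJ, and the labels and methods also name different library kits. Whole nerve was used, so RNA of fibroblasts, endothelial, perineurial and immune cells that are not targeted by the Cre is included, and fewer cells of a type and less RNA per cell cannot be told apart. Totals were 1317167, 1992622 and 2468765 counts in control replicates 1, 2 and 3 and 2184268, 1459387 and 2186710 counts in the corresponding Rnf40ΔSC libraries.

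PRC2 places methyl groups on lysine 27 of histone H3, and trimethylation of this residue (H3K27me3) marks genes that are kept silent. Ezh1 or Ezh2 carries out the reaction but is active only when bound to Eed and Suz12, while accessory subunits guide the complex to chromatin. The demethylases Kdm6a (UTX) and Kdm6b (JMJD3) remove the mark, and in Schwann cells PRC2 is known to restrain genes of the injury response.

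Rnf40, an E3 ligase for histone H2B and the gene deleted in Rnf40ΔSC mice, had raw counts of 82, 116 and 165 in control and 109, 75 and 118 in Rnf40ΔSC libraries. After scaling for depth and composition every Rnf40ΔSC library lay below every control library, in the direction of the labelled deletion. Its log2 fold change was -0.54 (adjusted p = 0.00243, edgeR's quasi-likelihood test, Benjamini-Hochberg adjusted), and scaling by total counts gave -0.27 (adjusted p = 0.116 in edgeR's quasi-likelihood test; range over alternatives 0.00235 to 0.116). Rnf20, the partner of Rnf40 in the same ligase, had raw counts of 80, 117 and 130 in control and 213, 153 and 172 in Rnf40ΔSC libraries. It rose by 0.44 on the log2 scale (adjusted p = 0.00997), and did not pass without control replicate 3 (adjusted p = 0.0869) or Rnf40ΔSC replicate 1 (adjusted p = 0.0569, all in edgeR's quasi-likelihood test). Libraries also differed in reads from the Y chromosome. Control replicate 1 and Rnf40ΔSC replicate 2 had 0 reads on 4 Y-linked genes, against 259 and 328 in the other control and 405 and 246 in the other Rnf40ΔSC libraries. P-values below measure the spread between these pools.

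All 10 members were detected in every library and passed the filter on low counts. Jarid2, Eed, Mtf2 and Suz12 rose in Rnf40ΔSC nerves, by 1.75-, 1.62-, 1.51- and 1.44-fold. The catalytic subunits, the histone-binding subunits and both demethylases did not pass the test. Thus 4 of 10 members were higher and 0 were lower at an adjusted p of at most 0.05 in edgeR's quasi-likelihood test. Among all 11371 genes tested, 31.6% passed in either direction, 15.5% were higher and 16.2% were lower. At an unadjusted p of at most 0.05 the same tool gave 5 higher and 0 lower members, and DESeq2 gave 4 higher and 0 lower. The share of all genes at this unadjusted limit was not counted, so the percentages above are not a background for these counts. After adjustment 2 members, Jarid2 and Mtf2, were higher with DESeq2. Without a fold-change prior DESeq2 gave 1172 higher and 1287 lower of the 11371 genes. In 4 members all Rnf40ΔSC libraries lay above all control libraries, which was the case for 22.0% of all genes, and in 1 member, Kdm6b, all lay below, as in 21.6% of all genes. Under the additional limits of the study, a log2 fold change beyond 0.8 in either direction and a mean normalised count from 20 upwards, 1 member (Jarid2) was higher, against 3.73% of all genes, and 0 members were lower, against 5.05%. The median log2 fold change was 0.24 over the members and 0.00 over all genes tested.

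**Figure D1:**
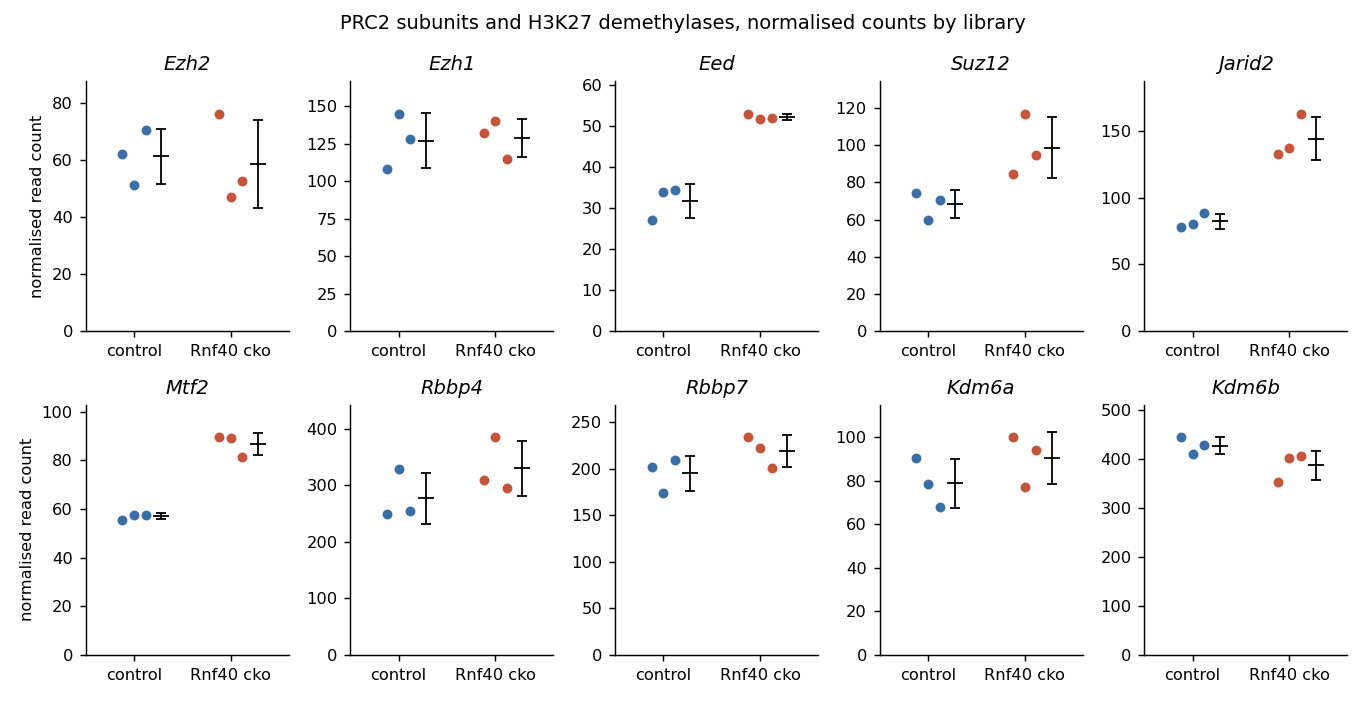
Normalised read counts (vertical axis from 0) of the 10 members in control (blue) and Rnf40ΔSC (red, labelled Rnf40 cko) libraries; each point is a library in replicate order, the horizontal mark is the mean and the bar the SD (n = 3). Eed, Suz12, Jarid2 and Mtf2 are higher in every Rnf40ΔSC library than in any control library, whereas Ezh1 and Ezh2 overlap.

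The catalytic subunits come first. Ezh2, the methyltransferase typical of dividing cells, had normalised counts of 61.9, 51.2 and 70.6 in control and 76.2, 47.0 and 52.7 in Rnf40ΔSC libraries. The highest and the lowest value both belonged to Rnf40ΔSC libraries, so the groups overlapped entirely. The control mean was 61.2 ± 9.71 and the Rnf40ΔSC mean 58.6 ± 15.5 (SD, n = 3), which gave a log2 fold change of -0.05 (SE 0.20, adjusted p = 0.862, edgeR's quasi-likelihood test, Benjamini-Hochberg adjusted). The 95% confidence interval ran from 0.73- to 1.27-fold, so a change of the size seen in Jarid2 lay outside it. Ezh1, the methyltransferase that prevails in non-dividing cells, had normalised counts of 108, 145 and 128 in control and 132, 140 and 115 in Rnf40ΔSC libraries. Here the control libraries held both extremes. The log2 fold change was 0.00 (SE 0.14, adjusted p = 0.995 in edgeR's quasi-likelihood test), with a 95% confidence interval from 0.825- to 1.21-fold. The sign of either fold change had no stability. Ezh1 turned to -0.09, -0.01 and -0.05 without control replicate 1, Rnf40ΔSC replicate 1 or Rnf40ΔSC replicate 2, and Ezh2 turned to 0.08, 0.07 and 0.05 without control replicate 3, Rnf40ΔSC replicate 2 or Rnf40ΔSC replicate 3.

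Promoters are shown for the 4 members that rose and for Ezh2, which did not. Each line gives 250 bases before to 50 after the transcription start, from the RefSeq table of build GRCm38.p6, which matched 9 of the 10 members; Kdm6b was the member without an entry. The Eed window is chr7:89980927-89981226 on the minus strand, Suz12 chr11:79992856-79993155 on the plus strand, Jarid2 chr13:44730524-44730823 on the plus strand, Mtf2 chr5:108065424-108065723 on the plus strand and Ezh2 chr6:47594981-47595280 on the minus strand. Jarid2 and Mtf2 have a further window each, which is not printed. Capitals mark matches to the E2F words TTTCCCGC, TTTCGCGC, TTTGCCGC and TTTGGCGC, searched on both strands.
Eed: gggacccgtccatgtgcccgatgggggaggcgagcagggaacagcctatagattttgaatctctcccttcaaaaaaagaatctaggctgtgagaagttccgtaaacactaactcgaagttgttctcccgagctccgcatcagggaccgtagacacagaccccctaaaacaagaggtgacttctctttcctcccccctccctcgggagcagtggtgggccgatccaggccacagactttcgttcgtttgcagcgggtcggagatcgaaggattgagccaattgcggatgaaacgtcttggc
Suz12: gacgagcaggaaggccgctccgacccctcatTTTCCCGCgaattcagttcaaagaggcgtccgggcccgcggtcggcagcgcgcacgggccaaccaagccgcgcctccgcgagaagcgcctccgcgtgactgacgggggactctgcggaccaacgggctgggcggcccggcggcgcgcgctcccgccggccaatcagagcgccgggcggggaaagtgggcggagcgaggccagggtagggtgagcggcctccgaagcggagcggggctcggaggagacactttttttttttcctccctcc
Jarid2: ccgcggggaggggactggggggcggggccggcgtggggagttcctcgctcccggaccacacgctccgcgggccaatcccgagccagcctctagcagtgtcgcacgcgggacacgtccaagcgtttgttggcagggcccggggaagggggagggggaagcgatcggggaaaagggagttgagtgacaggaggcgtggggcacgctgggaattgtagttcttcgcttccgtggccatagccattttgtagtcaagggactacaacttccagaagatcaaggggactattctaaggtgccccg
Mtf2: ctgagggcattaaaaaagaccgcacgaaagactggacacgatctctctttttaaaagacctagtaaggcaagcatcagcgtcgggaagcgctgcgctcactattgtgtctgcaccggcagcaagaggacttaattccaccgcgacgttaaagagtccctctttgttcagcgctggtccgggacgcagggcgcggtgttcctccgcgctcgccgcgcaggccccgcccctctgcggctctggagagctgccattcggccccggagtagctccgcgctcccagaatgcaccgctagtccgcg
Ezh2: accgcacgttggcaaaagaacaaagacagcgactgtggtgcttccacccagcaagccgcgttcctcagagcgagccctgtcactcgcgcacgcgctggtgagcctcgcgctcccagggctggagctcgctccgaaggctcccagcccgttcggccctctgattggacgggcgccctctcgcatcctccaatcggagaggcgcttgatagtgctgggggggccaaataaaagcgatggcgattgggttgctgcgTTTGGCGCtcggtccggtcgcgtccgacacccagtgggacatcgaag

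Suz12 held TTTCCCGC at positions -219 to -212 from the start, and Ezh2 held TTTGGCGC at positions 4 to 11. The printed windows of Eed, Jarid2 and Mtf2 held none of these words. Of all 32851 windows of this length, 744 (2.26%) held an E2F word. A word of the Schwann cell regulator Egr2 and its relatives, GCGNGGGCG, was found in 5.55% of all windows and, among the members, in Rbbp7 alone, on the minus strand at positions -184 to -176. A match is a description, not a site or a cause. CpG dinucleotides numbered 17 in the Eed, 41 in the Suz12, 24 in the Jarid2, 30 in the Mtf2 and 31 in the Ezh2 window printed, above the median of 7 over all windows. The further windows of Jarid2 and Mtf2 held 23 and 2.

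Of the core subunits, Eed, which binds H3K27me3 and stimulates the enzyme, had normalised counts of 27, 33.8 and 34.4 in control and 53.0, 51.8 and 51.9 in Rnf40ΔSC libraries. The Rnf40ΔSC libraries lay close together and well above all controls. The mean went from 31.7 ± 4.12 to 52.2 ± 0.656 (SD, n = 3), which gave a log2 fold change of 0.69 (SE 0.21, adjusted p = 0.0108, edgeR's quasi-likelihood test, Benjamini-Hochberg adjusted). Eed is also the member with the fewest reads, 17 to 65 per library, so that counting error weighs on each value. Suz12, which holds the complex together, had normalised counts of 74.6, 59.9 and 70.6 in control and 84.4, 117 and 95 in Rnf40ΔSC libraries. The groups did not overlap, but Rnf40ΔSC replicate 1 was nearer to control replicate 1 than to Rnf40ΔSC replicate 2. Its log2 fold change was 0.52 (SE 0.17, adjusted p = 0.0144 in edgeR's quasi-likelihood test). Without control replicate 2 or Rnf40ΔSC replicate 2 the Suz12 call was lost, with log2 fold changes of 0.43 and 0.40 and adjusted p-values of 0.0947 and 0.0942 in edgeR's quasi-likelihood test (range over alternatives 2.93e-04 to 0.0994). DESeq2 without a fold-change prior gave Eed and Suz12 adjusted p-values of 0.0604 and 0.0622, so neither passed there (range over alternatives for Eed 3.95e-04 to 0.075).

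Among the accessory subunits, Jarid2, which recruits PRC2 and is itself a relative of histone demethylases without their activity, had normalised counts of 77.8, 80.6 and 88.7 in control and 133, 137 and 163 in Rnf40ΔSC libraries. A wide gap separated the groups. The mean went from 82.4 ± 5.63 to 145 ± 16 (SD, n = 3), which gave a log2 fold change of 0.80 (SE 0.14, adjusted p = 2.83e-05, edgeR's quasi-likelihood test, Benjamini-Hochberg adjusted), the largest among the 10 members. At 0.804 the value lay just beyond the limit of 0.8, and without control replicate 1, control replicate 2 or Rnf40ΔSC replicate 3 it fell to 0.77, 0.78 and 0.71, which left 0 members past the limits of the study. Mtf2, a Polycomb-like protein that binds CpG-rich DNA, had normalised counts of 55.6, 57.7 and 57.7 in control and 89.4, 89.2 and 81.4 in Rnf40ΔSC libraries. Control libraries were nearly equal and all Rnf40ΔSC libraries were higher. The log2 fold change was 0.60 (SE 0.17, adjusted p = 0.00566 in edgeR's quasi-likelihood test). Jarid2 and Mtf2 passed at an adjusted p of at most 0.05 in each of the 14 alternatives run, with highest values of 8.01e-04 and 0.0425.

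**Figure D2:**
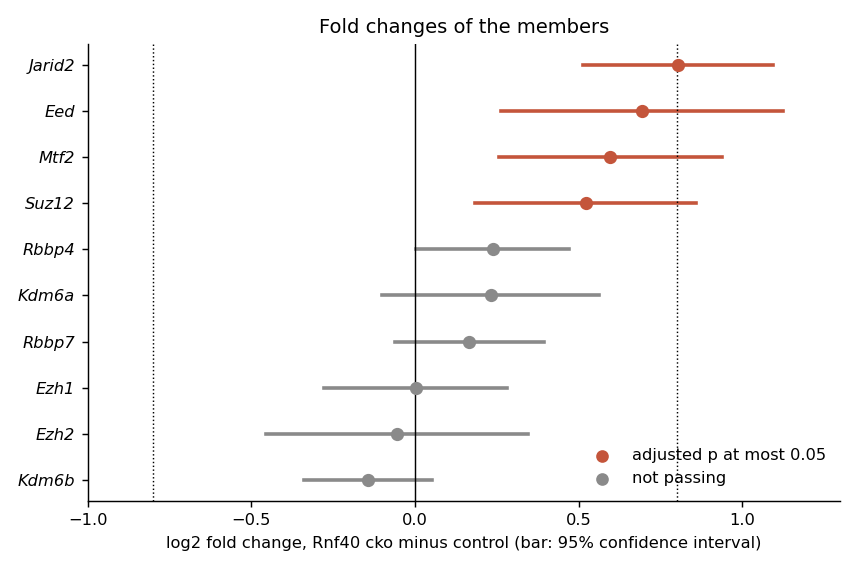
Log2 fold change of each member (point; horizontal axis, Rnf40ΔSC minus control) with its 95% confidence interval (bar), red where the adjusted p was at most 0.05; dotted lines mark the limit of 0.8 in either direction. Jarid2 at 0.80, Eed at 0.69, Mtf2 at 0.60 and Suz12 at 0.52 stand apart from 0, and the intervals of Ezh1 and Ezh2 span it.

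The histone-binding subunits Rbbp4 and Rbbp7 are shared with other chromatin complexes and thus are not particular to PRC2. Rbbp4 had normalised counts of 249, 329 and 254 in control and 310, 385 and 295 in Rnf40ΔSC libraries. Control replicate 2 exceeded 2 of the Rnf40ΔSC libraries, so the groups overlapped. Its log2 fold change of 0.24 (SE 0.12) had an unadjusted p of 0.0462 and an adjusted p of 0.115 in edgeR's quasi-likelihood test. Rbbp4 passed without control replicate 2 (log2 fold change 0.38, adjusted p = 0.0261 in edgeR's quasi-likelihood test) and without Rnf40ΔSC replicate 3 (0.32, adjusted p = 0.0285), within a range over alternatives of 5.90e-04 to 0.796. Rbbp7 ranged from 174 to 210 normalised counts in control and from 201 to 234 in Rnf40ΔSC libraries, with a log2 fold change of 0.17 (SE 0.11, adjusted p = 0.278 in edgeR's quasi-likelihood test).

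The demethylases removing the mark of PRC2 gave values of opposite sign that did not pass. Kdm6a, encoded on the X chromosome, had normalised counts of 90.5, 78.4 and 68.0 in control and 100, 77.2 and 94.2 in Rnf40ΔSC libraries. The libraries without Y-linked reads were the highest of the controls and the lowest of the Rnf40ΔSC group. Its log2 fold change was 0.23 (SE 0.16, adjusted p = 0.295 in edgeR's quasi-likelihood test). Kdm6b, an inducible enzyme, had normalised counts of 445, 410 and 430 in control and 353, 403 and 407 in Rnf40ΔSC libraries. Every Rnf40ΔSC library was below every control, yet the lowest control and the highest Rnf40ΔSC value nearly met. The log2 fold change of -0.14 (SE 0.10, adjusted p = 0.273 in edgeR's quasi-likelihood test) had a 95% confidence interval from 0.791- to 1.04-fold. With total-count scaling the Kdm6b value was 0.12.

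Composition of the libraries bears on all these values, because total-count scaling moved the median log2 fold change of all genes to 0.26 and the share of lower genes among those called from 51.2% to 19.2%. Relative to that median, Eed, Suz12, Jarid2 and Mtf2 stood at 0.70, 0.52, 0.81 and 0.60, and Ezh1, Ezh2 and Kdm6b at 0.01, -0.05 and -0.14. Scaling shifts all genes nearly alike, so subtracting the median returns the values above by construction and is not a separate result. Without a correction for composition 7 members passed, with Rbbp4, Rbbp7 and Kdm6a in addition. In that fit 3740 of the 11371 genes tested were higher and 886 lower, against 1757 and 1841 with the correction. When only the 4 libraries with Y-linked reads were fitted, a comparison chosen after seeing the data, Jarid2 and Mtf2 passed with log2 fold changes of 0.80 and 0.56, and Eed and Suz12 did not (0.62 and 0.45, adjusted p = 0.075 and 0.0994 in edgeR's quasi-likelihood test).

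Levels between genes were compared as CPM (counts per library scaled by its effective size) per kilobase of exon, with exon lengths from GENCODE vM1, since the annotation used for counting is not given in the sources used here. In control nerves the mean level was 34.6 for Rbbp7 and 31.7 for Kdm6b, whose libraries overlapped, then 16.3 for Rbbp4. Ezh1 at 8.79, Eed at 7.37 and Suz12 at 7.12 followed, each overlapping its neighbour. Below a gap between Suz12 and Mtf2 came Mtf2 at 5.58, Ezh2 at 5.09, Kdm6a at 4.99 and Jarid2 at 4.37, again with overlapping neighbours. In Rnf40ΔSC nerves the order on the same scale was Rbbp7 (38.9), Kdm6b (28.7), Rbbp4 (19.4), Eed (12.1), Suz12 (10.3), Ezh1 (8.94), Mtf2 (8.48), Jarid2 (7.66), Kdm6a (5.71) and Ezh2 (4.87). Gaps without overlap separated Rbbp7 from Kdm6b, Kdm6b from Rbbp4, Rbbp4 from Eed and Jarid2 from Kdm6a. Eed and Suz12 thus stood below Ezh1 in mean level in control and above it in Rnf40ΔSC nerves, and Jarid2 moved from the lowest place to above Kdm6a and Ezh2.

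**Figure D3:**
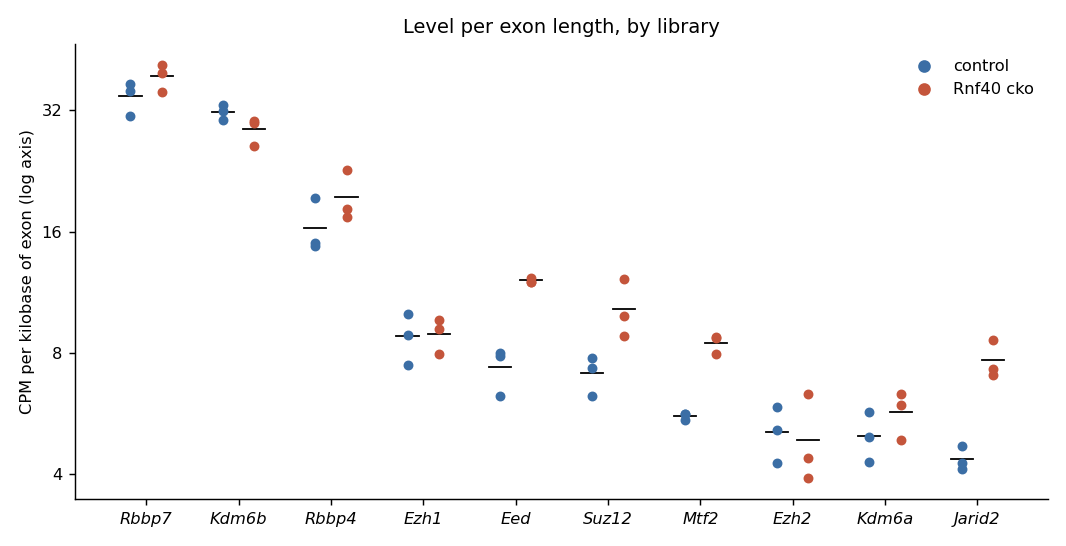
Level of each member as CPM per kilobase of exon (log axis) in control (blue) and Rnf40ΔSC (red, labelled Rnf40 cko) libraries, ordered by the control mean; each point is a library and each line a mean. Rbbp7 is highest in both genotypes, and Jarid2, lowest in control at 4.37, reaches 7.66 in Rnf40ΔSC nerves.

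Ratios of members within a library do not depend on scaling. Per length, Ezh1 exceeded Ezh2 in every library, 1.45-, 2.36- and 1.51-fold in control and 1.45-, 2.48- and 1.82-fold in Rnf40ΔSC libraries. The genotypes overlapped, with a difference of 0.11 on the log2 scale (exact two-sided permutation test, p = 0.7, n = 3 each, where 0.1 is the smallest p possible). Likewise, the ratio of Rbbp4 to Rbbp7 differed by 0.08 (exact permutation p = 0.8), that of Kdm6a to Kdm6b by 0.34 (exact permutation p = 0.2) and that of both demethylases to both methyltransferases by -0.08 (exact permutation p = 0.7), all on the log2 scale. After Benjamini-Hochberg adjustment over these 4 ratios each exact permutation p was 0.8. With each library left out the difference ran from -0.09 to 0.33 for Ezh1 to Ezh2, from -0.03 to 0.29 for Rbbp4 to Rbbp7, from 0.20 to 0.48 for Kdm6a to Kdm6b and from -0.19 to 0.05 for the demethylases to the methyltransferases, so that the sign of 3 of these ratios turned. The 4 members that rose, summed per length, stood to the summed Ezh1 and Ezh2 at 1.87, 1.68 and 1.74 in control and 2.38, 2.96 and 3.12 in Rnf40ΔSC libraries. Relative to the summed Rbbp4 and Rbbp7 they stood at 0.468, 0.478 and 0.493 in control and 0.618, 0.647 and 0.727 in Rnf40ΔSC libraries. Both ratios were higher in every Rnf40ΔSC library, but these sums were formed after the values were seen and were not tested.

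**Figure D4:**
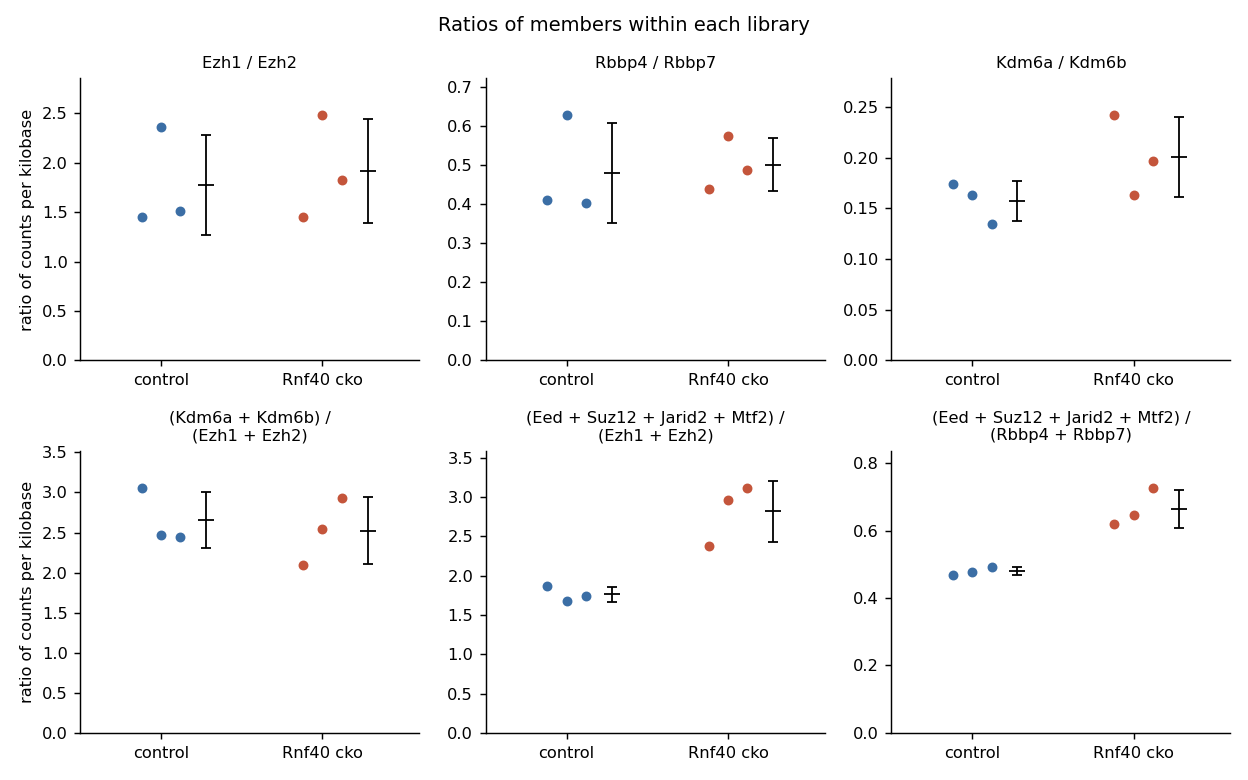
Ratios of counts per kilobase between members or sums of members within each library (vertical axes from 0), for control (blue) and Rnf40ΔSC (red, labelled Rnf40 cko) libraries; points are libraries in replicate order, the mark is the mean and the bar the SD (n = 3). The first 4 ratios overlap between genotypes, and the last 2, formed after the values were seen, do not.

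Annotated neighbours bear on the counts of some members. In GENCODE vM1 (mm9) genes on the opposite strand share 2.81% of the exon bases of Ezh2 (chr6:47480273-47545340), 3.60% of Suz12 (chr11:79806608-79847625), 7.51% of Mtf2 (chr5:108494693-108538023), 8.94% and 9.10% of Rbbp4 (chr4:128984344-129012614), 5.98% of Rbbp7 (chrX:159198334-159217024) and 4.11% of Kdm6b (chr11:69212010-69227177). Reads from such stretches are uncertain, as the strand setting of the counting is not given in the sources used here. No annotated gene overlapped exons of Eed (chr7:97103166-97129493), Jarid2 (chr13:44824843-45017012), Ezh1 (chr11:101052429-101087777) or Kdm6a (chrX:17739701-17857062).

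The profile of Ezh2 over the 6 libraries was most like those of Ifi27, Nsmaf and 4932438A13Rik (Pearson r = 0.986, 0.982 and 0.976 of log2 CPM), and that of Ezh1 most like those of Clptm1l, Spag9 and Pmm1 (r = 0.995, 0.99 and 0.985). These are the highest of 9335 genes compared and describe the same 6 libraries, without a test.

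Other genes of the pathway were placed beside the members. Of the other accessory genes of PRC2, 3 of 7 were tested and 0 passed in either direction, with log2 fold changes of 0.30 for Lcorl, 0.18 for Aebp2 and -0.14 for Phf1. Without adjustment Lcorl alone passed in edgeR. The count of higher genes was 2 without Rnf40ΔSC replicate 3, 2 with total-count scaling and 1 with at least 10 counts required in every library. PRC1, the complex that binds H3K27me3 and ubiquitinates histone H2A, had 20 of 22 genes tested, of which 3 were higher, 3 lower and 14 not passing, beside 15.5% higher and 16.2% lower of all genes tested, with a median of -0.02. Total-count scaling gave 9 higher and 1 lower of these genes and a median of 0.25, and 0 were higher with DESeq2, without control replicate 1 or without Rnf40ΔSC replicate 1. Pcgf2 fell, with raw counts of 69, 63 and 99 in control and 42, 25 and 75 in Rnf40ΔSC libraries, a log2 fold change of -1.02 (adjusted p = 8.12e-04 in edgeR's quasi-likelihood test), and Cbx7 fell by 0.64 on the log2 scale, or by 0.37 without passing (adjusted p = 0.0893) with total-count scaling. Of the others that passed (Phc1 at -0.42, Phc3 at 0.38, Scmh1 at 0.40 and L3mbtl2 at 0.85), all lost the call with DESeq2. Leaving out control replicate 1 gave them adjusted p-values of 0.107, 0.118, 0.0703 and 0.108, and leaving out Rnf40ΔSC replicate 1 gave 0.208, 0.072, 0.0761 and 0.0651 in edgeR's quasi-likelihood test. Without control replicate 2 the values for Phc1 and Scmh1 were 0.148 and 0.0506, without control replicate 3 that for Scmh1 was 0.135, without Rnf40ΔSC replicate 2 that for Phc1 was 0.0528 and without Rnf40ΔSC replicate 3 that for Scmh1 was 0.0581. Phc1 stood at -0.15 with total-count scaling (adjusted p = 0.485) and at -0.41 without a filter on low counts (adjusted p = 0.0563, edgeR's quasi-likelihood test).

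PR-DUB, which removes the ubiquitin placed by PRC1, had 3 of 8 genes higher and 0 lower, with a median of 0.22. Its count of lower genes ran from 0 to 1 over the 14 alternatives. Asxl3 rose by 1.11 and Asxl2 by 0.68 on the log2 scale. The Bap1 value of 0.48 did not pass without control replicate 3 (adjusted p = 0.139) or Rnf40ΔSC replicate 3 (0.0548, edgeR's quasi-likelihood test), nor with DESeq2 (adjusted p = 0.0584, or 0.0581 when a fold-change prior was used). The MLL3/MLL4 complex, in which Kdm6a resides, had 4 of 10 genes higher and 0 lower, with a median of 0.31, and the count of higher genes ran from 1 to 4 with each library left out and was 2 with DESeq2 and 8 with total-count scaling. Kmt2c and Dpy30 both rose by 0.62 on the log2 scale, Dpy30 not passing without Rnf40ΔSC replicate 1 (adjusted p = 0.0558 in edgeR's quasi-likelihood test). Ash2l at 0.40 and Rbbp5 at 0.48 lost the call without control replicate 2 (adjusted p = 0.074 and 0.11), control replicate 3 (0.0539 and 0.0773), Rnf40ΔSC replicate 1 (0.0582 and 0.0853) or Rnf40ΔSC replicate 2 (0.0824 and 0.0923), and Ash2l also without control replicate 1 (0.0952, edgeR's quasi-likelihood test). Neither passed with DESeq2, whose adjusted p-values were 0.103 and 0.106 without a fold-change prior. Of enzymes that place marks opposed to H3K27me3, Crebbp rose by 0.40 and Ep300 did not pass (0.27), and 3 of 5 H3K36 methyltransferases were higher (Setd2 at 0.54, Ash1l at 0.52 and Whsc1l1 at 0.39) and 0 lower, the last not passing without control replicate 3 (adjusted p = 0.0776 in edgeR's quasi-likelihood test). For PR-DUB, the MLL3/MLL4 complex and the H3K36 methyltransferases the counts of higher genes stand beside 15.5% and those of 0 lower genes beside 16.2% of all genes tested. Total-count scaling gave 5 higher genes in PR-DUB and 5 in the H3K36 methyltransferases, and Ep300 passed there too. With only the libraries holding Y-linked reads, Crebbp at 0.34 (adjusted p = 0.0592), Whsc1l1 at 0.34 (0.0799), Ash2l at 0.31 (0.197) and Rbbp5 at 0.46 (0.112, edgeR's quasi-likelihood test) did not pass, nor did Rnf20, Phc1, Phc3, Scmh1 or L3mbtl2.

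**Figure D5:**
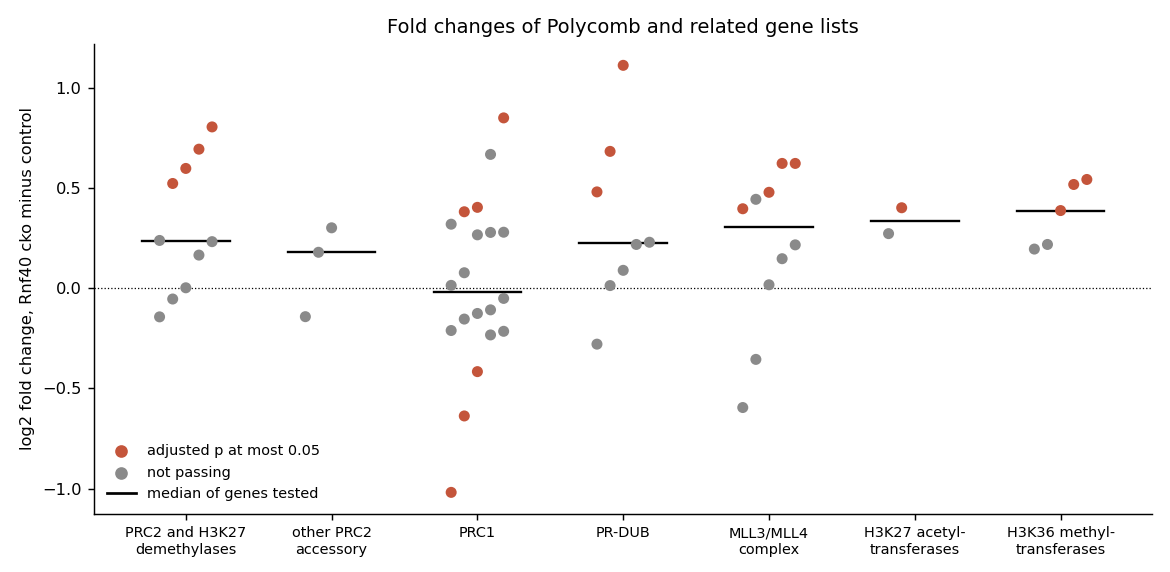
Log2 fold change (vertical axis, Rnf40ΔSC minus control) of each gene tested in the members and in 6 related lists; points are genes, red where the adjusted p was at most 0.05, and lines are medians. The median is 0.24 for the members, -0.02 for PRC1 and 0.39 for the H3K36 methyltransferases.

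Genes linked to Polycomb silencing were mostly at or near the floor. Among 20 lineage regulators commonly silenced by PRC2, 17 had 3 reads or fewer in every library and 7 had 0 reads. Of 12 nerve injury and cell cycle inhibitor genes, 6 had 3 reads or fewer in every library, among them Cdkn2a, Shh, Gdnf and Fgf5, while Bdnf and Olig1 had 0 reads. A fall or a small rise in these genes was not detectable at this depth. Of the 4 tested, Igfbp2 had raw counts of 5, 3 and 4 in control and 51, 43 and 68 in Rnf40ΔSC libraries, and Megf10 had 33, 60 and 76 in control and 219, 197 and 202 in Rnf40ΔSC libraries. Both rose, with log2 fold changes of 3.43 and 1.62 (adjusted p = 3.66e-10 and 8.82e-11 in edgeR's quasi-likelihood test). With 3 to 5 control reads, Igfbp2 entered the test through its Rnf40ΔSC libraries, so a fall could not have been found. Cdkn1c at 0.22 and Runx2 at -0.29 did not pass.

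Markers of cell state and cell type moved beside the members, and their part in the result was not tested. Of 14 proliferation genes tested, 4 were higher (Mki67 at 0.64, Top2a at 0.65, Mcm2 at 0.96 and Aurkb at 1.19 on the log2 scale) and 0 lower, beside 15.5% and 16.2% of all genes tested, with 1 lower when Rnf40ΔSC replicate 3 was left out and 7 higher with total-count scaling. The summed level of the list was 208, 168 and 210 CPM in control and 264, 269 and 296 CPM in Rnf40ΔSC libraries, with Mki67 most abundant. Aurkb, at 3 to 23 reads, lost the call without control replicate 1, control replicate 2 or Rnf40ΔSC replicate 1 (adjusted p = 0.0731, 0.174 and 0.123 in edgeR's quasi-likelihood test), and with DESeq2 (adjusted p = 0.117, or 0.111 when a fold-change prior was used). With only the libraries holding Y-linked reads neither Top2a at 0.51 (adjusted p = 0.0877) nor Aurkb at 1.25 (0.068, edgeR's quasi-likelihood test) passed. Of the Schwann cell markers, Sox10 fell by 0.79 and Egr2 rose by 0.36 on the log2 scale. Immature Schwann cell markers, led by Pou3f1, summed to 619, 642 and 612 CPM and to 1240, 1570 and 1260 CPM, with 4 of 6 higher and 2 lower. Among the higher ones, Gfap had raw counts of 1, 5 and 0 in control and 12, 9 and 17 in Rnf40ΔSC libraries. It entered the test through the Rnf40ΔSC libraries, so a fall could not have been found. Fibroblast markers, led by Col3a1, summed to 53800, 52500 and 56900 CPM and to 40200, 38500 and 38000 CPM, with 6 of 7 lower. Lower markers also numbered 3 of 4 perineurial, 4 of 6 endothelial, 3 of 5 pericyte and smooth muscle, 3 of 6 macrophage, 2 of 4 mast cell and 2 of 4 adipocyte genes tested, and 0 genes of these lists were higher. Skeletal muscle markers, led by Myh4, summed to 3560, 2670 and 1970 CPM in control and to 75.1, 197 and 2600 CPM in Rnf40ΔSC libraries, with 0 of 8 passing. Neuronal markers were near the floor, with Snap25 (1.5) higher among 2 tested. Snap25 had raw counts of 3, 6 and 8 in control and 23, 13 and 23 in Rnf40ΔSC libraries. It entered the test through the Rnf40ΔSC libraries, so a fall could not have been found. Of red blood cell genes Hbb-b1 and Hba-a1 had 0 reads. Alas2 had raw counts of 27, 27 and 32 in control and 12, 14 and 42 in Rnf40ΔSC libraries and did not pass.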

How the data were processed

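RNA-Seq of sciatic nerve was taken as the raw counts per gene that the authors deposited, whole numbers without normalization, from uniquely mapped reads aligned to mm9 with TopHat and assigned with HTSeq. The submitters' processing notes name Bowtie2 2.1.0 and both mm9 and mm10. Genotype and replicate number came from the labels. In R 4.3.3, edgeR 4.0.16 was used with filterByExpr, TMM scaling and a robust quasi-likelihood model in which genotype was the single term, and p-values were adjusted by Benjamini-Hochberg over 11371 genes. Normalised counts are counts divided by the effective library size and multiplied by its arithmetic mean over the 6 libraries. Alternatives were other scalings, filters on low counts, DESeq2 1.42.0, a replicate block and each library left out, and, chosen after seeing the data, the libraries with Y-linked reads and a geometric mean in place of the arithmetic mean. Replicates differed beyond sampling noise (chi-square per degree of freedom 1.78 to 5.21). At these depths 3 reads correspond to 1.23 to 2.45 CPM, which covers counting error only. All members were named. From each other list except the marker lists, every gene that passed was named where 6 or fewer did, otherwise the 3 largest rises and the 3 largest falls. Phf1, Aebp2, Lcorl, Ep300, Runx2, Cdkn1c and marker genes were named after their values were seen. The members and lists were chosen with earlier results of these data known. Some genes of the lists are not reported here. ChIP-Seq data were not analysed here.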

Additional observations from a re-analysis of the deposited data

How the results depend on the processing

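Jarid2 and Mtf2 kept their direction and their call in all 14 alternatives. Members higher numbered 4, and 7 with total-count scaling, 2 with DESeq2 without and 2 with a fold-change prior, 2 with only the libraries holding Y-linked reads (chosen after seeing the data), and 3 to 5 with each library left out; members lower numbered 0 throughout. Members past the limits of the study numbered 1, and 3 with total-count scaling, 0 with DESeq2 and a prior and 0 to 1 with each library left out. Beside these, 424 of all genes were higher past the limits, 1014 with total-count scaling and 331 with DESeq2 and a prior. Total-count scaling moved the genes higher from 1757 to 3740 and lower from 1841 to 886 by the shift in the median given above, and turned Ezh2 to 0.21 and Kdm6b to 0.12 on the log2 scale. With each library left out Ezh1 ran from -0.09 to 0.10 and Ezh2 from -0.28 to 0.08, and with only the libraries holding Y-linked reads they were -0.14 and 0.06. The cause of these other changes was not tested. The limits of the study held 424 genes higher and 574 lower; the normalised mean behind them depends on the common library size, and a geometric in place of the arithmetic mean, chosen after seeing the data, gave 415 and 567, with 1 member in both.

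With the replicate number as a replicate block, 1727 genes were higher and 1837 lower, with 4 members higher and 0 lower, and no member's call changed. Samples of the same number did not deviate together over all genes (r = -0.09, -0.02 and -0.06). This check cannot exclude a shared litter or batch that moves few genes. Depth limits genes with few reads, such as Eed at 17 to 65 reads per library.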
